A study of Mus musculus with 4 samples.

Results

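Keratinocytes, which make up most of the epidermis, were isolated from newborn C57BL/6 mice and studied as primary cultures. The response described here is the difference between 2 arrays, the one of wild-type (WT) cells 4 h after ultraviolet B (UVB) at a dose of 75 mJ/cm2 and the one of WT cells without irradiation. These are 2 of the 4 arrays of the series. The other 2 hold keratinocytes labelled as knockout (KO) for p38a, the stress kinase encoded by Mapk14, from the same strain and age, with and without the same UVB dose. The labels name neither a mock-irradiated control at 4 h nor the number of mice pooled in a culture. Effects of UVB and of 4 h of handling and culture therefore cannot be told apart. There is 1 array per group, so no difference below has a replicate check, no p-value is given, and precision is limited by having so few arrays.

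UVB is absorbed by DNA and leaves pyrimidine dimers and related photoproducts on the template strand. RNA polymerase II stalls at these lesions until nucleotide excision repair removes them, so a long gene is more likely to be blocked than a short one. Irradiated keratinocytes also activate stress-responsive MAP kinases, NF-kB, p53 and the epidermal growth factor (EGF) receptor, release cytokines that recruit leukocytes, and may arrest, die or differentiate. This is textbook background and was not measured here.

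The deposited values are MAS5 signals, in linear units of brightness per probe set. Each gene was read from its brightest probe set, the one with the highest mean signal over the 4 arrays. Values under a floor of 24.9 units, the median of that mean over all probe sets, were raised to it, and a fold against a raised value is given as "at least". Of 18193 named genes, 11379 reached the floor on average and are called expressed. The median signal over probe sets was 30.3 units without irradiation and 18.7 units after UVB, and probe sets at or above the floor went from 54.4% to 43.1%. The 18 hybridisation controls, which are bacterial and phage RNAs added to every sample, differed by a median of 0.01 on the log2 scale, between -0.12 and 0.15. The ratio of 3' to 5' signal, a sign of RNA integrity, was 1.19 and 1.17 for the Actb control and 0.759 and 0.796 for the Gapdh control. It was 2.37 and 2.68 for the dimmer Tfrc control. The 27 probe sets for poly-A controls were at most 21.5 and 17.3 units, below the floor, so no added RNA reports on the yield of labelling, and the part of that yield in the array-wide difference was not tested.

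Signal was lower after UVB for 10233 of the 11379 expressed genes (89.9%) and higher for 1049, with a median log2 difference of -0.70, or 1.63-fold lower. At least 2-fold higher were 66 genes, 0.580% of those expressed. At least 2-fold lower were 3958 genes, 34.8%. The scaling sets this split, since quantile normalization of the same probe sets moved the median to 0.03 and gave 582 higher genes (5.11%) and 1106 lower ones (9.72%). Median centring moved the median to 0.30. The same 66 genes (0.580%) passed 2-fold upwards under all 3 scalings, and 863 genes (7.58%) passed downwards under all 3. Both rescalings moved the differences upwards, so passing all 3 is a stricter filter for the lower genes but adds no check for the 66. Below, "higher" and "lower" refer to the signal as deposited unless another scaling is named, and a gene list is read against the shares of 0.580% and 34.8%. Among the genes named below, 31 that were past 2-fold as deposited came within 2-fold with median centring.

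**Figure D1:**
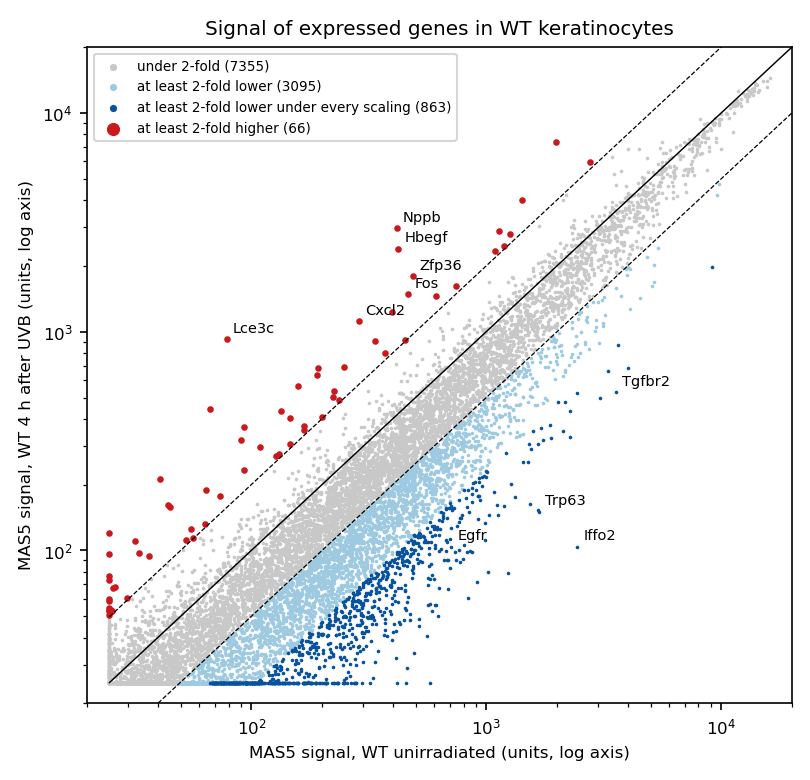
MAS5 signal of the 11379 expressed genes in WT keratinocytes, without irradiation (horizontal, units, log axis) and 4 h after UVB (vertical, units, log axis), with values under 24.9 units drawn at that floor. The solid line marks equal signal and the dashed lines 2-fold. Most points lie under the solid line, the 66 red points lie at least 2-fold above it, and the dark blue points are the 863 genes at least 2-fold lower under every scaling.

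Several of the genes that were higher after UVB are textbook targets of NF-kB, AP-1 or serum response factor, so the bases before their start sites are shown for the chemokines, the small proline-rich genes, a metalloproteinase and an mRNA decay factor. The sequences are the 250 bases before the RefSeq start in build GRCm38.p6, written 5' to 3' along the gene. Capitals mark the motif found in each, and the positions are bases before the start. Cxcl1 (chr5:90890995-90891244, plus strand) and Cxcl2 (chr5:90903649-90903898, plus strand) hold the NF-kB motif, which starts 71 and 97 bases before the start in 2 overlapping matches each. Ccl20 (chr1:83116516-83116765, plus strand) holds it 80 bases before the start.
Cxcl1: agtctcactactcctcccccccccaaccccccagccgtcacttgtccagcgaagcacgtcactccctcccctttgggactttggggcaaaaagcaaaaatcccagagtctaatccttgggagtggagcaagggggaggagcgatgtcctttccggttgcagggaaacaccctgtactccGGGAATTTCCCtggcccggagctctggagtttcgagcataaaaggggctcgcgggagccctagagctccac
Cxcl2: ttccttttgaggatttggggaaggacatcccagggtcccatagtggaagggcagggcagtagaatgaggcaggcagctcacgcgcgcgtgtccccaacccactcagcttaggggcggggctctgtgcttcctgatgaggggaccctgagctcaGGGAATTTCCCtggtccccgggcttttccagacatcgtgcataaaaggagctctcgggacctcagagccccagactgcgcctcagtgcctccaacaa
Ccl20: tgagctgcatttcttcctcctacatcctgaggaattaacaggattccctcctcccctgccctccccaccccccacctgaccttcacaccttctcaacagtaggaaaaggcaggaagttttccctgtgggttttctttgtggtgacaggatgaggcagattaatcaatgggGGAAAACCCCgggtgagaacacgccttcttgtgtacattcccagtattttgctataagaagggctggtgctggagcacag
Sprr2f (chr3:92364937-92365186, plus strand), Sprr2h (chr3:92385435-92385684, plus strand) and Sprr2i (chr3:92407741-92407990, plus strand) lie in the epidermal differentiation complex on chromosome 3. Each holds the AP-1 motif TGANTCA, 197, 198 and 193 bases before the start, and TATAAA 29 bases before it. Mmp10 (chr9:7502092-7502341, plus strand) holds the same pair, 63 and 29 bases before the start.
Sprr2f: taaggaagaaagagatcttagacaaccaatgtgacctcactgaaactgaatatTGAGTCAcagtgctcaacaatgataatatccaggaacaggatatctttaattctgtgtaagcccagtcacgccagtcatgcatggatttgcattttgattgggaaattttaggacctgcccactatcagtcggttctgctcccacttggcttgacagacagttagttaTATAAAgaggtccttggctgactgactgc
Sprr2h: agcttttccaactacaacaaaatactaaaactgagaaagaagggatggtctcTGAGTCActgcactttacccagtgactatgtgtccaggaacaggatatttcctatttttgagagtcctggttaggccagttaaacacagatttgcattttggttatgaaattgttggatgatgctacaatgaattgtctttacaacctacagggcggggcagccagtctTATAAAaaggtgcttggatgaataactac
Sprr2i: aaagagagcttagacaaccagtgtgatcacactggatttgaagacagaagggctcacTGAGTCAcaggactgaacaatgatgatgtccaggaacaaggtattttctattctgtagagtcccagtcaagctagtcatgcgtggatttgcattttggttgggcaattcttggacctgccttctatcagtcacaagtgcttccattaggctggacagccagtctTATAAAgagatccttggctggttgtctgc
Mmp10: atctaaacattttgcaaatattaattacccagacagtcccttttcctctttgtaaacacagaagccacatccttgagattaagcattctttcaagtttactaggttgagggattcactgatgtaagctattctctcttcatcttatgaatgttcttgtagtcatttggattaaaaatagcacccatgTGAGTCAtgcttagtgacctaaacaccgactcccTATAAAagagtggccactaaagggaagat
Zfp36 (chr7:28379229-28379478, minus strand) holds the serum response element motif 58 bases before the start.
Zfp36: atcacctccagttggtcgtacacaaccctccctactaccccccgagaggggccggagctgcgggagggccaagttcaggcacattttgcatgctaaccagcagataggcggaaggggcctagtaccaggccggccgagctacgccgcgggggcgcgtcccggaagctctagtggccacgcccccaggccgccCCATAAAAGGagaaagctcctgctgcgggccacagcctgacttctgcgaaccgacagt

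Of the 66 higher genes, 53 had a start-site sequence in the RefSeq table, as did 9207 of the 11379 expressed genes. TATAAA on the gene's own strand stood in the 250 bases of 12 of the 53 (22.6%), against 4.13% of the 9207 and 2.61% of the 689 with a sequence among the genes lower under every scaling. The AP-1 motif TGANTCA, searched on both strands as were the following ones, stood in 6 of the 53 (11.3%) against 4.34% and 1.89%. Both the 12 and the 6 include Sprr2f, Sprr2h and Sprr2i, related copies of 1 family, so these sequences are not independent. The cAMP response element TGACGTCA, whose letters do not contain the AP-1 motif, stood in 2 (3.77%) against 2.77% and 2.47%. Shares for the NF-kB motif were 7.55%, 4.42% and 4.06%, and for the serum response element 5.66%, 1.17% and 1.16%. Among expressed chemokines the NF-kB motif stood in 5 of 8 sequences, and among expressed Lce and Sprr genes TATAAA stood in 9 of 17 and the AP-1 motif in 7 of 17. A match is a description of these letters and no evidence of binding.

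Cornified envelope genes gave the highest ratios. Late cornified envelope (Lce) and small proline-rich (Sprr) genes encode proteins that are cross-linked under the membrane of dying keratinocytes to form the skin barrier. Of 20 expressed members 9 (45.0%) were at least 2-fold higher and 1 was at least 2-fold lower, and the list's median log2 difference was 0.63 against -0.70 for all expressed genes. Lce3c went from 78.55 to 922.1 units and was 11.7-fold higher. Lce3f, of the same subgroup, went from 66.92 to 445.3 units and was 6.65-fold higher, and Lce3b went from 45.08 to 158.0 units, 3.5-fold higher. Of the Lce1 subgroup, Lce1i went from 93.44 to 365.2 units (3.91-fold higher) and Lce1f from 192.3 to 685.5 units (3.56-fold higher), while Lce1b, at 54.15 and 50.64 units, and Lce1a1, at 94.53 and 88.60 units, stayed within 1.5-fold. All 3 expressed Lce3 genes were over 2-fold higher, and the expressed Lce1 genes lay on both sides of 0.

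Among the Sprr genes, Sprr2f went from 40.80 to 212.2 units (5.2-fold higher), Sprr2i from 63.85 to 188.9 units (2.96-fold) and Sprr2h from 2759 to 5946 units (2.16-fold). Sprr2j-ps, annotated as a pseudogene of this family, went from 189.4 to 630.9 units, 3.33-fold higher. Sprr1a and Sprr1b, early envelope precursors, were nearer to equal, at 5487 and 6877 units and 3503 and 5259 units. Sprr3 was the member at least 2-fold lower, at 62.29 and 29.84 units (2.09-fold, but 0.01 on the log2 scale with median centring). Kprp, a keratinocyte proline-rich protein of the same complex, went from 93.24 to 234.4 units, 2.51-fold higher. The probe sets of Lce3c, Lce1i and Lce3b carry the manufacturer's mark for possible cross-hybridisation, and that of Sprr2h the mark for probes shared by several transcripts. The families are near-identical copies, so signal may be shared between members, also where a probe set carries no mark. Genes of the envelope scaffold were not among them: of 16 expressed scaffold and cross-linking genes 0 were at least 2-fold higher, while 3 lay 2-fold or more below. Lor, which encodes the main bulk protein of the envelope, read 297.1 and 243.9 units, and Ivl, an early scaffold protein, 249.3 and 100.7 units (2.47-fold lower).

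Ligands of the EGF receptor family divided among themselves as deposited, while the receptor's signalling genes were lower. Hbegf, the membrane-anchored ligand HB-EGF, went from 421.6 to 2394 units and was 5.68-fold higher. Ereg, epiregulin, went from 134.0 to 432.8 units (3.23-fold higher) and Epgn, epigen, from 2124 to 3996 units (1.88-fold). Hence 2 of 6 expressed ligands were at least 2-fold higher as deposited, while 3 lay 2-fold or more below. With quantile normalization of the same probe sets 3 were at least 2-fold higher and 1 lower. Nrg1, a ligand of ERBB3 and ERBB4 and not of the EGF receptor, went from 153.7 to 28.46 units (5.4-fold lower). Tgfa read 290.9 and 118.6 units (2.45-fold lower) and Btc 55.99 and 27.45 units (2.04-fold lower). On the log2 scale Tgfa and Btc were at -0.22 and 0.04 with median centring. With quantile normalization over the 4 arrays they were at -0.29 and -0.19. Of 20 expressed receptors, sheddases, adaptors and feedback inhibitors, 20 were below 0 and 16 (80.0%) at least 2-fold lower, with a median of -1.73.

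Egfr, the receptor itself, went from 710.6 to 104.0 units by its brightest probe set, 6.83-fold lower, and by 3 further probe sets from 503.3 to 171.6, 293.0 to 169.1 and 240.5 to 67.10 units. Another 2 probe sets of Egfr, both dim, read 27.15 and 33.89 units and 22.91 and 26.60 units. The co-receptors Erbb2 at 288.5 and 36.71 units (7.86-fold) and Erbb3 at 678.5 and 221.4 units (3.06-fold) were lower too. Spred2 at 427.3 and 46.10 units (9.27-fold) and Spred1 at 276.7 and 31.91 units (8.67-fold), inhibitors of the RAS cascade, had the largest ratios of the list. Sos1, the exchange factor that activates RAS, went from 306.9 to 44.74 units (6.86-fold). Adam17, the sheddase that releases ligands, was nearer to equal, at 502.7 and 379.9 units.

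AP-1 transcription factors, formed from FOS and JUN family proteins, were higher in part. Fos went from 465.2 to 1480 units (3.18-fold higher) and Fosl1, which encodes FRA-1, from 200.8 to 405.9 units (2.02-fold). Junb, at 411.1 and 710.2 units, Atf3, at 507.8 and 701.1 units, Jun, at 1847 and 2231 units, and Jund, at 1885 and 1946 units, were above 0 but under 2-fold. Fosl2, which encodes FRA-2, went the other way, from 1534 to 162.8 units (9.42-fold lower), as did Jdp2, a repressor of AP-1, from 248.3 to 44.84 units (5.54-fold). In all 2 of 10 expressed members were at least 2-fold higher, while 2 lay 2-fold or more below, with a median of 0.36. Other immediate early genes, which serum or stress induces without new protein synthesis, lay somewhat above the background. Of 28 expressed members 1 (3.57%) was at least 2-fold higher, 20 were below 0 and 8 (28.6%) lay 2-fold or more below. With quantile normalization 5 were at least 2-fold higher and 2 lower. Plk3, a stress kinase, went from 449.4 to 916.0 units (2.04-fold higher). Myc, the growth regulator, went from 1504 to 253.5 units (5.93-fold lower), Egr2 from 178.5 to 44.63 units (4.0-fold) and Klf10 from 858.2 to 218.2 units (3.93-fold), whereas Ier3 read 3748 and 5440 units and Btg2, a growth-arrest gene, 638.0 and 1044 units.

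The MAP kinase phosphatases, which end MAP kinase signals, divided as well in the signal as deposited. Dusp6, selective for ERK, went from 146.1 to 402.7 units (2.76-fold higher) and Dusp1, which acts on p38 and JNK, from 608.0 to 1450 units (2.39-fold). Dusp16, Dusp10 and Dusp14 went from 463.5 to 108.8 units, from 292.5 to 90.63 units and from 1136 to 364.9 units, and were 4.26-fold, 3.23-fold and 3.11-fold lower. Of 11 expressed phosphatases 2 were at least 2-fold higher, while 5 lay 2-fold or more below. With quantile normalization 4 were at least 2-fold higher and 1 lower, and Dusp10 and Dusp14 were at -0.66 and -0.96 on the log2 scale. None of the 21 expressed MAP kinase pathway kinases was at least 2-fold higher and 8 (38.1%) were at least 2-fold lower. Mapk14, which encodes p38a, went from 985.4 to 292.5 units (3.37-fold), Map2k4, an activator of JNK, from 551.5 to 134.4 units (4.1-fold) and Map2k3, an activator of p38, from 1631 to 968.1 units (1.68-fold). With quantile normalization 3 of the 21 kinases were at least 2-fold lower, and 0 were under every scaling. With median centring Mapk14 and Map2k4 were within 2-fold, at -0.68 and -0.97 on the log2 scale.

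Chemokines also had a list median above 0, at 0.24. Cxcl2, a neutrophil attractant, went from 286.7 to 1117 units (3.89-fold higher). Ccl20, which attracts CCR6-bearing dendritic cells and T cells, went from 109.1 to 297.8 units (2.73-fold), and Cxcl1, a neutrophil attractant, from 746.7 to 1613 units (2.16-fold). These were 3 of 12 expressed chemokines (25%), and none was at least 2-fold lower. Cxcl3 read 174.1 and 293.0 units and Ccl2, the monocyte attractant, 143.8 and 213.5 units, both under 2-fold. The interferon-linked Cxcl10 was near equal at 198.4 and 211.2 units, and Cxcl16, at 2288 and 1813 units, was lowest on the list in log2 terms.

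Of 10 expressed cytokines, Tnf was the one at least 2-fold higher and Csf1 the one at least 2-fold lower. Tnf went from 7.769 to 95.95 units, at least 3.85-fold higher with its unirradiated signal under the floor, and Csf1, the macrophage growth factor, from 153.4 to 30.40 units (5.04-fold lower). With the probe set chosen anew after scaling, Csf1 was at -0.32 on the log2 scale with quantile normalization and -0.27 with median centring. Il6, at 0.9220 and 0.7989 units, was below the floor on both arrays. In the IL-1 and IL-36 family, the named ligands were nearer to equal than the named receptors. Il1a read 98.37 and 125.4 units, Il1b 66.77 and 49.15 units and Il33 1267 and 873.0 units, while the receptor Il1r1 went from 252.0 to 49.68 units (5.07-fold lower) and its co-receptor Il1rap from 278.7 to 39.52 units (7.05-fold). NF-kB genes stood at the background shares: of 17 expressed members 0 were at least 2-fold higher, while 6 (35.3%) lay 2-fold or more below. Nfkbia, the inhibitor that NF-kB induces as feedback, went from 5195 to 2011 units (2.58-fold), Tnfaip3, another feedback gene, from 334.5 to 176.2 units (1.9-fold), and the adaptor Traf6 from 124.0 to 29.62 units (4.19-fold).

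Proteins that bind AU-rich elements control how long such cytokine mRNAs last. Zfp36, tristetraprolin, went from 487.3 to 1792 units (3.68-fold higher) and its relative Zfp36l1 from 1264 to 2782 units (2.2-fold), whereas the third member, Zfp36l2, went from 2443 to 524.7 units (4.66-fold lower). Of all 35 expressed decay factors, these 3 included, 16 (45.7%) were at least 2-fold lower. Pum2, an RNA-binding repressor, went from 832.4 to 60.39 units (13.8-fold), Dcp1a, a decapping factor, from 298.5 to 30.91 units (9.66-fold) and Cnot2, of the CCR4-NOT deadenylase, from 574.9 to 73.90 units (7.78-fold).

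Single genes outside these groups completed the largest ratios. Nppb, which encodes the B-type natriuretic peptide, went from 415.7 to 2978 units (7.16-fold higher). Ddit4l, an inhibitor of mTOR signalling, went from 158.2 to 565.7 units (3.57-fold), and its 2 other probe sets from 115.5 to 325.4 and from 102.7 to 123.3 units. Rgs2, a regulator of G protein signalling, went from 90.16 to 319.0 units (3.54-fold). Defb4, an antimicrobial beta-defensin, went from 33.40 to 96.85 units (2.9-fold) and the metalloproteinase Mmp10 from 73.31 to 177.6 units (2.42-fold). H3f3b, a histone H3.3 gene, went from 32.11 to 109.9 units (3.42-fold) on a single dim probe set. With an unirradiated signal under the floor, the homeobox gene Nkx2-9 went from 19.00 to 120.5 units (at least 4.84-fold higher), Adamtsl4 from 23.62 to 60.17 units (at least 2.42-fold), Ccno from 24.68 to 58.73 units (at least 2.36-fold), Zmynd15 from 4.792 to 54.69 units (at least 2.2-fold), Myo1g from 23.85 to 52.68 units (at least 2.12-fold) and Abcb9 from 17.35 to 50.94 units (at least 2.05-fold). Of the 66 higher genes, 56 were at or above the floor on both arrays and 10 were bounds. For 3 of the 15 with more than 1 probe set at the floor a probe set moved the other way. The 2-fold line is not a gap, since 9 genes lay between 1.9-fold and 2-fold higher and 9 between 2-fold and 2.1-fold.

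**Figure D2:**
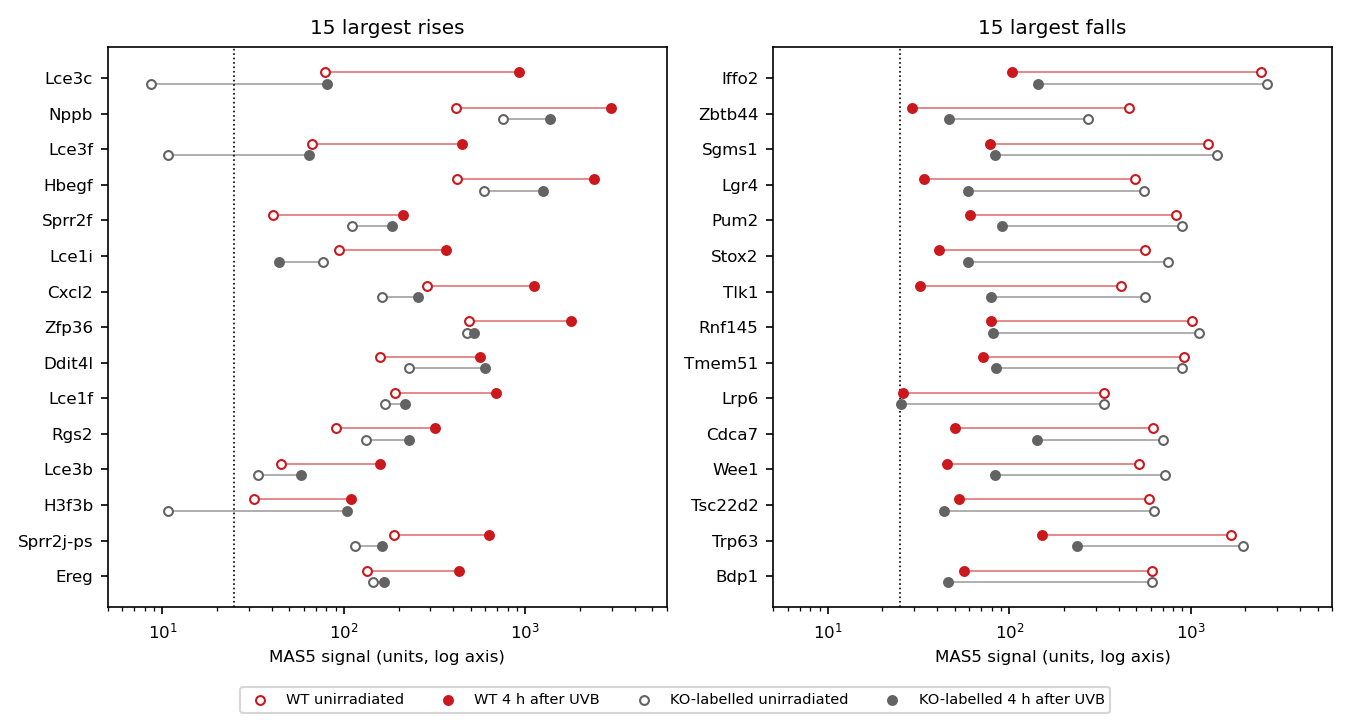
MAS5 signal (units, log axis) of the 15 genes with the largest upward and the 15 with the largest downward ratio in WT cells, among those at or above the floor on both WT arrays whose probe sets agree in direction, without gene-model names, with open circles for unirradiated and filled circles for irradiated cells. Red is the WT pair and grey the KO-labelled pair, 1 array per circle, and the dotted line is the floor of 24.9 units. In WT, Lce3c spans 78.55 to 922.1 units and Iffo2 2437 to 104.1 units, and for all 15 lower genes the KO-labelled circles lie in the same order as the red ones.

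The p53 targets, induced when DNA is damaged, had 2 of 30 expressed members (6.67%, against 0.580% of all) at least 2-fold higher, Ddit4l and Gadd45a, and 7 (23.3%) at least 2-fold lower, under the 34.8% of all. Gadd45a, which binds PCNA and CDK1, went from 371.6 to 795.7 units (2.14-fold higher). Cdkn1a, the p21 inhibitor of cyclin-dependent kinases, read 3418 and 6276 units and Pmaip1, the death promoter NOXA, 2337 and 3076 units, both under 2-fold. Mdm2, the ubiquitin ligase of p53, went from 973.6 to 467.4 units (2.08-fold lower), and the p53 targets Zmat3 from 809.6 to 229.5 units (3.53-fold), Trp53inp1 from 2730 to 835.6 units (3.27-fold) and Sesn1 from 231.1 to 62.43 units (3.7-fold). With median centring Mdm2 was at 0.01, so its direction depends on the scaling. The antiproliferative gene Tob1 went from 1189 to 2473 units (2.08-fold higher), although its second, dim probe set read 47.90 and 23.72 units.

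Nucleotide excision repair, the pathway that removes UVB lesions, had all 36 of 36 expressed genes below 0 and 11 (30.6%) at least 2-fold lower, near the background of 34.8%. With quantile normalization its median was 0.19. Of the damage recognition genes, Xpc read 130.4 and 46.34 units (2.81-fold lower). Ddb2 read 152.3 and 101.8 units (1.5-fold lower, less than the median of 1.63-fold for all expressed genes). With quantile normalization over the 4 arrays Xpc was at -0.46 and Ddb2 at 0.46 on the log2 scale. The nuclease gene Ercc4 went from 154.6 to 9.803 units (at least 6.21-fold), its partner Ercc1 from 935.2 to 754.4 units (1.24-fold), and Cdk7, the kinase of the repair factor TFIIH, from 771.5 to 88.75 units (8.69-fold). DNA damage checkpoint and bypass genes had a larger share, 18 of 29 (62.1%), with 9 lower under every scaling. Wee1, the kinase that holds CDK1 inactive, went from 518.0 to 45.35 units (11.4-fold) and Cdc25a, the phosphatase that opposes it, from 522.4 to 114.9 units (4.55-fold). The translesion polymerase genes Polh, Rev1 and Rev3l went from 283.3 to 65.40 units, from 175.6 to 33.89 units and from 177.2 to 40.46 units, which made them 4.33-fold, 5.18-fold and 4.38-fold lower. Atr, the kinase that senses stalled forks, was nearer to equal at 217.4 and 140.4 units.

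Cell death genes were near the background of all expressed genes. At least 2-fold lower were 2 of 9 death promoters and 2 of 4 survival members of the Bcl-2 family, and no member of either was at least 2-fold higher. Apaf1, the scaffold of the apoptosome, went from 335.9 to 30.97 units (10.8-fold lower), Bid from 563.8 to 69.61 units (8.1-fold) and Bcl2l11, the death promoter BIM, from 146.2 to 35.99 units (4.06-fold). On the survival side Bcl2 went from 75.82 to 22.60 units (at least 3.05-fold), Bcl2l1 from 383.5 to 170.6 units (2.25-fold), Xiap from 715.2 to 223.9 units (3.19-fold) and Cflar from 188.6 to 59.81 units (3.15-fold), while Mcl1 read 2052 and 1454 units. With median centring Bcl2, Bcl2l1, Xiap and Cflar were within 2-fold, at -0.68, -0.10, -0.61 and -0.59 on the log2 scale. Bcl2l11, at -0.95, was too, but Apaf1, at -2.37, and Bid, at -1.95, were not. With quantile normalization 0 of the 4 Bcl-2 survival members were at least 2-fold lower. Of 24 expressed caspases, death receptors and their inhibitors 10 (41.7%) were at least 2-fold lower. A dim probe set of Xiap went the other way, from 33.56 to 54.59 units.

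The genes with the largest downward ratios came from many families. Iffo2, an intermediate filament family gene, went from 2437 to 104.1 units and was 23.4-fold lower. Sgms1, sphingomyelin synthase 1, went from 1240 to 78.58 units (15.8-fold), the zinc finger gene Zbtb44 from 457.7 to 28.93 units (15.8-fold) and Tlk1, a kinase of chromatin assembly, from 412.7 to 32.12 units (12.8-fold). Cdca7, a MYC-responsive gene, went from 621.2 to 50.03 units (12.4-fold), Tsc22d2 from 589.3 to 52.83 units (11.2-fold) and Bdp1, a factor of RNA polymerase III, from 613.2 to 56.45 units (10.9-fold). Stox2, Rnf145 and Tmem51 were 13.7-fold, 12.8-fold and 12.7-fold lower. With an irradiated value below the floor, Gas1, a growth-arrest gene of the cell surface, went from 578.6 to 8.867 units (at least 23.2-fold), Rapgef2 from 455.4 to 22.37 units (at least 18.3-fold), the kinase gene Nlk from 414.9 to 20.46 units (at least 16.7-fold), Vav3 from 318.6 to 23.78 units (at least 12.8-fold), Mosmo from 295.8 to 13.01 units (at least 11.9-fold), Casp8ap2 from 278.3 to 17.49 units (at least 11.2-fold), the stress kinase gene Eif2ak3 from 278.1 to 22.38 units (at least 11.2-fold) and Jade2 from 277.4 to 18.18 units (at least 11.1-fold). Among the 863 genes lower under every scaling, 497 had more than 1 probe set at the floor, and in 25 of these a probe set moved the other way.

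Receptors and messengers of developmental pathways had low list medians. In the TGF-beta and BMP pathway 21 of 30 expressed genes (70.0%) were at least 2-fold lower, 10 of them under every scaling, with a median of -1.74 (-0.86 with quantile normalization). Acvr1b went from 565.7 to 74.74 units (7.57-fold), Bmpr1a from 1114 to 161.7 units (6.89-fold), Acvr1 from 374.0 to 54.76 units (6.83-fold) and Tgfbr2 from 3551 to 529.3 units (6.71-fold), with a second Tgfbr2 probe set at 393.0 and 41.06 units. Smad4, the shared messenger, went from 1176 to 348.1 units (3.38-fold). The named ligands were nearer to equal, with Tgfb1 at 194.0 and 130.2 units and Bmp7 at 222.0 and 191.4 units, as was the activin inhibitor Fst at 4587 and 3013 units.

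In the Wnt pathway 23 of 37 (62.2%) were at least 2-fold lower and 13 lower under every scaling. Lrp6, the co-receptor, went from 330.6 to 26.00 units (12.7-fold), the R-spondin receptor gene Lgr4 from 493.2 to 33.83 units (14.6-fold) and the Frizzled receptor gene Fzd2 from 423.5 to 47.06 units (9.0-fold). Axin1 at 248.2 and 36.15 units (6.87-fold) and Apc at 439.8 and 91.67 units (4.8-fold), scaffolds that destroy beta-catenin, were lower, while Ctnnb1, beta-catenin itself, read 6470 and 4165 units. The one Wnt member above 0 was the receptor gene Fzd5, at 96.44 and 138.7 units. In the Notch pathway 13 of 20 (65.0%) were at least 2-fold lower. The ligand genes Dll1 and Jag1 went from 297.3 to 50.32 units (5.91-fold) and from 1028 to 255.0 units (4.03-fold). Notch1, the receptor that drives keratinocyte differentiation, went from 1605 to 462.9 units (3.47-fold), Notch2 from 448.2 to 102.2 units (4.39-fold) and the coactivator gene Maml1 from 428.3 to 78.21 units (5.48-fold). In the insulin and IGF pathway 13 of 29 (44.8%) were at least 2-fold lower, led by Irs1 at 204.5 and 12.31 units (at least 8.21-fold) and Pik3r1 at 189.0 and 23.71 units (at least 7.59-fold), whereas the IGF binding proteins Igfbp3 at 717.4 and 1025 units and Igfbp2 at 5365 and 5808 units were not lower.

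**Figure D3:**
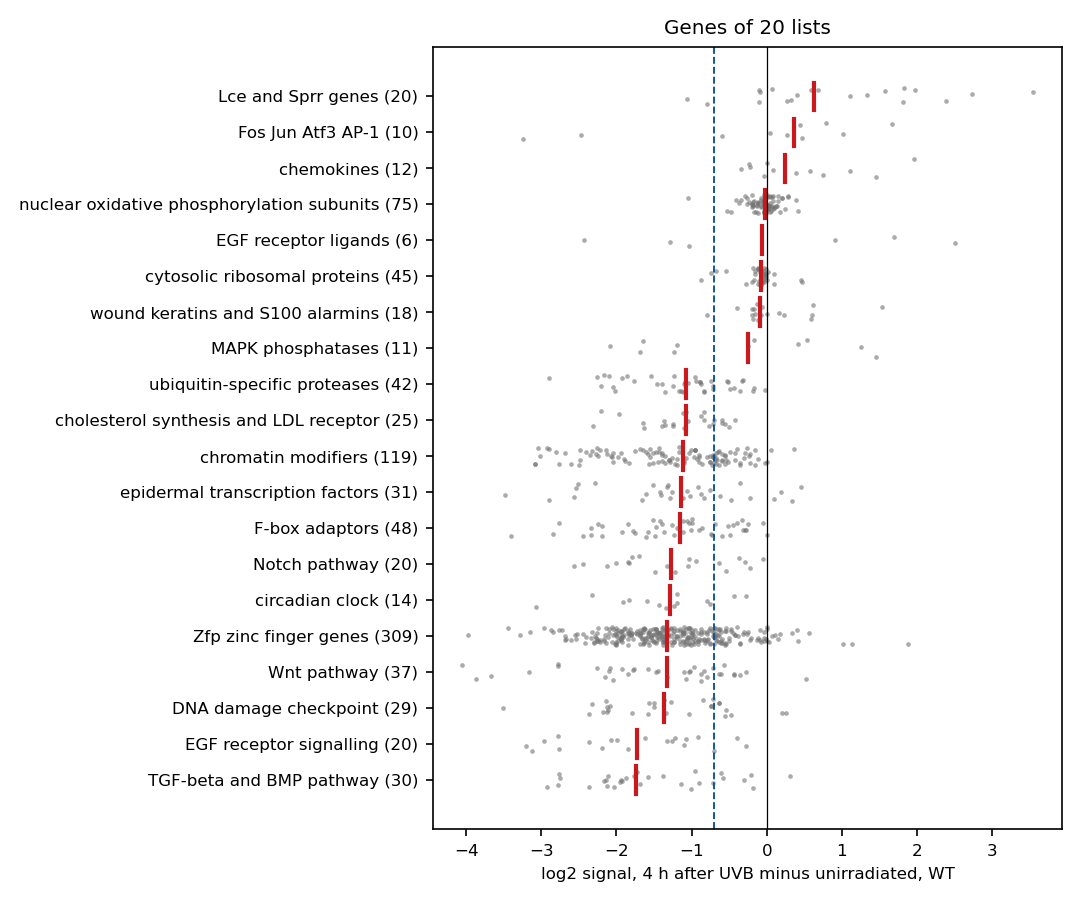
Log2 difference in signal, 4 h after UVB minus unirradiated, in WT cells for the expressed genes of 20 lists (points, number of genes in brackets), with the list median as a red bar. The dashed line is the median of all expressed genes, -0.70, and the solid line is 0. Lce and Sprr genes, AP-1 genes and chemokines have medians above 0, and the EGF receptor signalling and TGF-beta lists lie lowest, at -1.73 and -1.74.

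Transcription factors of the epidermis were lower as a list, 19 of 31 (61.3%) by at least 2-fold. Trp63, which encodes p63, the factor that maintains basal keratinocytes, went from 1676 to 150.5 units (11.1-fold), and its 3 further probe sets went from 319.9 to 91.97, 207.1 to 34.29 and 144.8 to 53.46 units. The grainyhead genes Grhl1 and Grhl2, regulators of barrier formation, went from 1192 to 160.2 units (7.44-fold) and from 484.1 to 81.29 units (5.96-fold). Runx1 went from 212.8 to 37.32 units (5.7-fold) and Rxra, the shared partner of nuclear receptors, from 349.1 to 60.12 units (5.81-fold), although a second Rxra probe set read 242.9 and 152.6 units. Rxra was above 0 under quantile normalization, at 0.30, and under median centring, at 0.40, with the probe set chosen anew in both. Ahr, the aryl hydrocarbon receptor, went from 222.4 to 45.55 units (4.88-fold). Klf4, at 2351 and 2980 units, Cebpa, at 706.8 and 757.0 units, and Prdm1, at 209.1 and 287.5 units, factors of the differentiating layers, were above 0.

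General regulators followed. Of 119 expressed chromatin modifiers 65 (54.6%) were at least 2-fold lower, among them Kat6a, an acetyltransferase, at 369.1 and 43.43 units (8.5-fold), Setd1b at 298.1 and 35.31 units (8.44-fold) and Arid1a at 600.2 and 74.20 units (8.09-fold, but -0.25 on the log2 scale with median centring and the probe set chosen anew), while the bromodomain gene Brd2 read 1340 and 1322 units. Of 309 expressed zinc finger genes, mostly DNA-binding repressors, 207 (67.0%) were at least 2-fold lower, 71 of them under every scaling. The 3 higher ones were Zfp36, Zfp36l1 and Zfp772, the last at 56.68 and 114.0 units (2.01-fold). F-box adaptors had 29 of 48 (60.4%), led by Fbxo34 at 264.8 and 14.58 units (at least 10.6-fold), and ubiquitin-specific proteases 22 of 42 (52.4%), led by Usp32 at 677.4 and 90.91 units (7.45-fold). Genes of RNA polymerase II, its general factors and Mediator stood near the background, at 33 of 95 (34.7%). Polr2a, the catalytic subunit of the polymerase, read 195.5 and 352.5 units and was 1.8-fold higher, against Med23 at 248.8 and 20.62 units (at least 9.99-fold lower).

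Clock, replication and mitosis genes all lay below 0, as did 89.9% of expressed genes. All 14 of 14 expressed clock genes were below 0 and 10 (71.4%) at least 2-fold lower. Clock went from 290.5 to 34.68 units (8.38-fold) and its partner Arntl from 126.1 to 25.07 units (5.03-fold), with a dim Arntl probe set at 29.90 and 38.74 units. Per1, of the repressor arm, was nearer to equal at 230.8 and 171.7 units. Per3, of the same arm, read 29.99 and 20.61 units, too close to the floor of 24.9 units to show a large fall. All 39 of 39 replication genes and all 38 of 38 genes of G2 and mitosis were below 0. At least 2-fold lower were 14 (35.9%) and 16 (42.1%). The origin-licensing genes Orc1 and Cdc6 went from 233.1 to 24.77 units (at least 9.36-fold) and from 300.0 to 57.80 units (5.19-fold), E2f3 from 182.1 to 26.42 units (6.89-fold) and cyclin E2, Ccne2, from 366.5 to 67.11 units (5.46-fold). The helicase subunit gene Mcm6 at 1756 and 1355 units and the sliding clamp Pcna at 6249 and 4654 units were nearer to equal. Of the mitotic genes, the kinase genes Ttk and Aurka went from 302.5 to 42.10 units (7.19-fold) and from 874.2 to 203.1 units (4.3-fold), while Cdc20 read 2550 and 2270 units and Ube2c 3429 and 3204 units.

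Lipid synthesis and cell contact genes varied by member. Of 25 expressed cholesterol genes all were below 0 and 14 (56.0%) at least 2-fold lower. Sqle, squalene epoxidase, went from 3284 to 660.8 units (4.97-fold) and Hmgcs1, the HMG-CoA synthase, from 9125 to 1980 units (4.61-fold). Fdps, at 7490 and 5599 units, was nearest to equal. Of 16 expressed tight junction and connexin genes 7 (43.8%) were at least 2-fold lower, with Ocln, occludin, at 309.8 and 49.67 units (6.24-fold), the scaffold gene Tjp1 at 1703 and 363.5 units (4.69-fold) and Cldn1, claudin-1, at 4084 and 1274 units (3.2-fold), but the connexin gene Gjb6, connexin 30, read 74.88 and 115.2 units. Desmosome genes were closer, 3 of 18 (16.7%) at least 2-fold lower, and desmoplakin, Dsp, read 9504 and 7342 units. Itga6, the integrin of the hemidesmosome, went from 2941 to 1135 units (2.59-fold) and its partner Itgb4 from 1139 to 739.1 units (1.54-fold).

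Keratins, ribosomal proteins and subunits of oxidative phosphorylation stayed close to their unirradiated signal as deposited. Basal keratins Krt5 and Krt14 read 13795 and 12614 units and 12588 and 11980 units, and the wound keratins Krt6a, Krt16 and Krt17 read 14409 and 12754 units, 7545 and 7531 units and 11708 and 10835 units. Krt10, the keratin of suprabasal cells, read 659.4 and 526.1 units. These checked the labelled cell type, since the defining keratins were present on both arrays. Of 45 expressed ribosomal protein genes 0 were at least 2-fold higher and 0 lower, with a median of -0.07 and a range from -0.87 to 0.47. The 75 nuclear genes of oxidative phosphorylation had a median of -0.02, with 34 above and 41 below 0. With quantile normalization the ribosomal and oxidative phosphorylation medians were 0.05 and 0.28, against 0.03 for all expressed genes, so their distance from other genes depends on the scaling. As deposited, other genes of translation and mitochondria were lower than these lists, with 11 of 46 initiation factor genes (23.9%) and 9 of 76 mitochondrial ribosomal protein genes (11.8%) at least 2-fold lower and medians of -0.46 and -0.36. Proteasome subunits had 3 of 45 at least 2-fold lower (6.67%). The antioxidant NRF2 list had 5 of 28 at least 2-fold lower (17.9%) and none higher, with Hmox1, heme oxygenase-1, at 406.9 and 310.8 units. Among heat shock genes Hspa1a read 1025 and 1690 units and the constitutive Hspa8 9581 and 4216 units (2.27-fold lower, but 0.36 on the log2 scale with median centring).

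Level and difference were related. Genes with a mean WT signal over 6400 units had a median log2 difference of -0.09, those from 1600 to 6400 units -0.26, those from 400 to 1600 units -0.60, those from 100 to 400 units -0.95 and those under 100 units -0.66. Ribosomal and keratin genes belong to the bright classes. The higher genes had a median unirradiated signal of 118 units and the genes lower under every scaling one of 259 units, against 231 units for all expressed genes. Both groups were chosen on a ratio to this same unirradiated signal, and a gene that starts near the floor cannot be called lower. The distance between these medians therefore follows in part from the choice.

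Gene length differed between the higher and the lower genes. Gene span, the distance from the start to the end of a gene with its introns, was known from RefSeq for 11351 of the 11379 expressed genes. The median span was 3.4 kb for the 66 higher genes, 22.9 kb for all expressed genes and 49.7 kb for the 863 genes lower under every scaling. For genes under 5 kb the median log2 difference was -0.31. It was -0.48 from 5 to 10 kb, -0.61 from 10 to 20 kb, -0.84 from 20 to 50 kb, -1.02 from 50 to 100 kb and -0.91 over 100 kb. The share of genes lower under every scaling went from 2.46% under 5 kb to 14.9% between 50 and 100 kb, and the share at least 2-fold higher from 3.09% to 0.123%. Of the 66 higher genes 44 were under 5 kb and 1 was over 100 kb.

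The order by span stood within classes of signal too. Between 100 and 400 units the median was -0.52 under 5 kb, -1.05 from 20 to 50 kb and -1.32 from 50 to 100 kb. Between 400 and 1600 units it was -0.22, -0.73 and -0.89, and between 1600 and 6400 units -0.05, -0.41 and -0.56. With quantile normalization, the medians over all signals were 0.33 under 5 kb and -0.22 from 50 to 100 kb, so the order was kept while the sign was not. Across genes, which are not independent replicates and share their arrays, span and difference had a Spearman correlation of -0.33 (-0.28 with quantile normalization). In the KO-labelled pair the medians were -0.45 under 5 kb and -1.08 from 50 to 100 kb, and the correlation was -0.31.

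The lists followed the same order in part. The median span was 1.7 kb for expressed Lce and Sprr genes, 3.4 kb for ribosomal protein genes, 3.6 kb for chemokines and 7.3 kb for nuclear oxidative phosphorylation genes. It was 43.5 kb for the Wnt pathway, 44.0 kb for chromatin modifiers, 62.9 kb for EGF receptor signalling and 65.1 kb for the TGF-beta and BMP pathway. Zinc finger genes went against it, with a median span of 16.8 kb and a median difference of -1.33. Basal keratinocyte genes did as well, with 46.1 kb and -0.5. Single genes also departed from the order. Tsc22d1, a leucine zipper regulator of 92.8 kb, went from 1975 to 7347 units (3.72-fold higher) and 1 of its 6 probe sets at the floor moved the other way, while Gas1 spans 3.13 kb and Myc 5.02 kb.

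**Figure D4:**
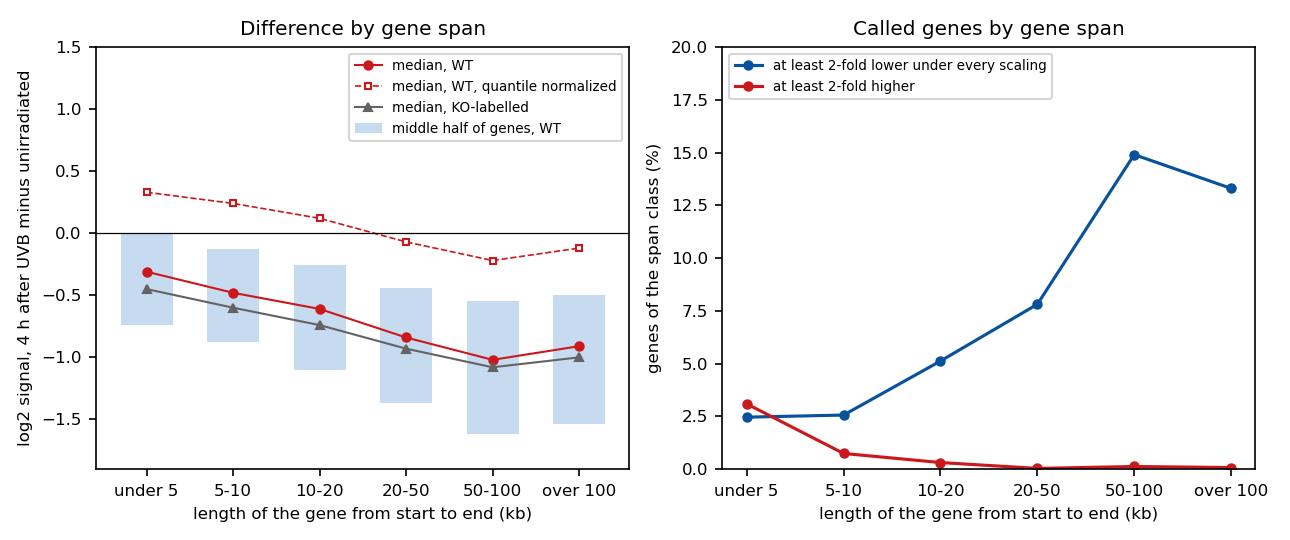
Left, median log2 difference in signal after UVB by gene span in kb, for WT as deposited (red circles, with the middle 50% of genes as bars), WT after quantile normalization (open squares) and the KO-labelled pair (grey triangles). Right, the percentage of genes in each span class that were at least 2-fold higher (red) or at least 2-fold lower under every scaling (blue). The WT medians go from -0.31 under 5 kb to -1.02 between 50 and 100 kb.

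Markers of other cell types were present at low to moderate signal. All 21 fibroblast markers on the array were expressed, with a summed signal of 11082 units before and 8924 units after UVB, among them Col1a1 at 320.0 and 297.0 units and Col1a2 at 678.0 and 508.1 units. All 12 melanocyte markers were expressed, with sums of 7127 and 5519 units, including Dct at 1756 and 1449 units and Tyrp1 at 1776 and 1439 units. Neither list had a member at least 2-fold higher, and their medians, -0.39 and -0.34, were nearer to 0 than that of all genes. Mitf, the melanocyte regulator, went from 225.0 to 23.01 units (at least 9.04-fold lower). The 19 leukocyte and Langerhans cell markers on the array had sums of 757 and 764 units, expressed or not. Of these, 7 were expressed, with log2 differences from -0.94 to 0.32. Among the 12 not expressed, Ptprc at 15.14 and 1.628 units and Cd207 at 3.512 and 2.544 units were below the floor on both arrays. Of 10 endothelial markers 2 were expressed, and Pecam1 read 5.656 and 2.755 units. In these bulk samples fewer cells of a type and less RNA per cell cannot be told apart, and the part of other cell types in the differences above was not tested.

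The KO-labelled pair shares no array with the WT pair, and gives the same contrast in cells with another genotype label. Mapk14, the targeted gene, read 1449 and 646.8 units there against 985.4 and 292.5 units in WT, and since the labels do not say which exons are deleted, its probe sets cannot check the genotype. Of the 863 genes lower under every scaling in WT, 837 (97.0%) were at least 2-fold lower there, where 4473 of the 11379 genes (39.3%) were, so that they made up 18.7% of those. Their median log2 difference was -2.31 in WT and -2.20 in the KO-labelled pair. Of the 66 higher genes 10 (15.2%) were at least 2-fold higher there, which is 52.6% of the 19 genes that were (0.167% of those expressed). A further 30 of the 66 were above 0 by less than 2-fold, 2 were at 0 and 24 below 0, with a median of 0.34 against 1.35 in WT. Since the genes were chosen on the WT pair, a smaller value in the other pair follows in part from the choice.

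Fos read 303.0 and 1005 units in the KO-labelled pair (3.32-fold higher), Hbegf 591.2 and 1248 units (2.11-fold), Ddit4l 228.4 and 602.5 units and Gadd45a 657.6 and 1509 units. Zfp36 read 475.3 and 518.9 units and Cxcl1 764.4 and 764.0 units, so that the chemokine was near equal on both arrays. Nppb read 757.3 and 1368 units, Ereg 144.3 and 165.4 units and Cxcl2 162.2 and 254.7 units, each higher in irradiated cells but under 2-fold. Lce1i went the other way, from 76.62 to 44.18 units, and so did Ppif, the mitochondrial cyclophilin, from 1054 to 640.7 units against 1089 and 2337 units in WT. Whether the responses differ between the genotype labels was not tested, since there is 1 array per group.

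**Figure D5:**
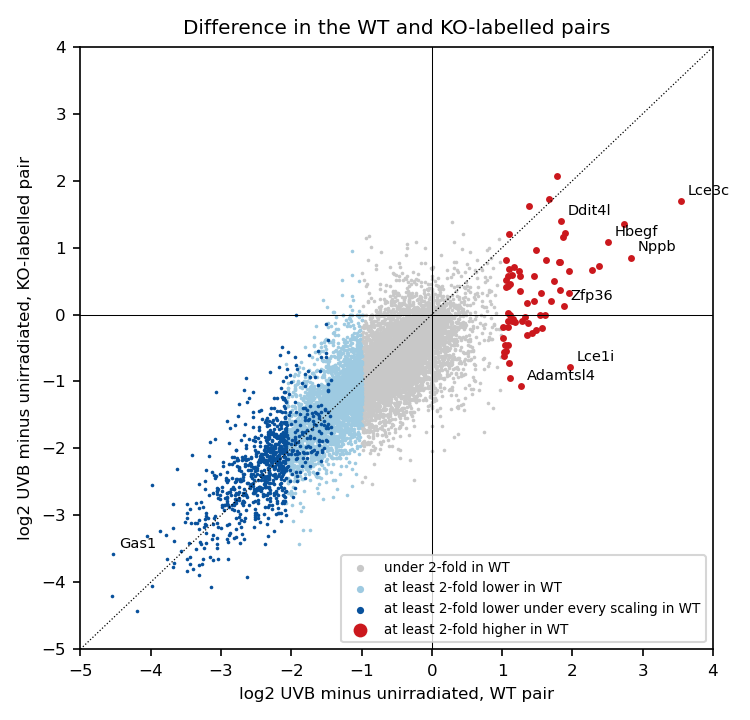
Log2 difference in signal, 4 h after UVB minus unirradiated, in the WT pair (horizontal) and in the KO-labelled pair (vertical) for the 11379 expressed genes, coloured by their call in WT, with the dotted line marking equal values. Of the 863 dark blue genes 837 are at least 2-fold lower in the KO-labelled pair, and of the 66 red genes 10 are at least 2-fold higher there.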

How the data were processed

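Total RNA of 4 keratinocyte samples was extracted with Trizol and a spin column and labelled from 0.2 ug with biotin for Affymetrix 3' arrays, per the labels. The deposited values are MAS5 signal intensity on a linear scale, 1 value per probe set and array, with MAS5 named in the submitters' processing notes and its version and scaling target not given in the sources used here. Probe sets were named from the platform annotation: 34945 of 45101 carry 1 symbol, 932 several and 9160 none, 64 are controls, and only those with 1 symbol were used. The floor, the choice of probe set and the 3 scalings are described with the results. A fold is the ratio of the WT irradiated to the WT unirradiated intensity after the floor, and log2 differences use the same values. With 1 array per group no model was fitted and depth has no counterpart beyond the signal over the floor. Genes were named by rule: the 15 largest ratios in each direction at or above the floor with all their probe sets in agreement, up to 8 of the largest bounds in each direction (7 upward met the rule), and up to 5 members per direction of each described list plus those that mark a role, in each case without gene-model names (such as those ending in Rik). Tsc22d1 and Ppif were added after their values were seen. The genes and the 65 gene lists were chosen with earlier results of these data known. Gene spans, start-site sequences and symbols came from RefSeq (GRCm38.p6). Alternatives covered scaling, floor, fold threshold, filter and probe set choice. Scripts were tested on simulated data and ran in Python 3.11.15 with pandas 2.3.3, numpy 2.4.6, scipy 1.17.1 and matplotlib 3.10.9.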

Additional observations from a re-analysis of the deposited data

Results flagged for a closer look

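Adamtsl4, a secreted protein of the ADAMTS-like family, moved in opposite directions in the WT and the KO-labelled pair by at least 2-fold each. Its log2 difference was 1.27 in WT, where the unirradiated signal of 23.62 units was below the floor, and -1.07 in the KO-labelled pair, at 54.97 and 26.15 units. The difference between the pairs was not tested, since there is 1 array per group.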

How the results depend on the processing

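There is 1 array per group, so no array could be left out. No paired analysis was possible because no group has a second replicate. Each alternative below chose the probe set, and where scaling changed the floor, anew. Genes at least 2-fold higher numbered 616 with quantile normalization over the 4 arrays, 591 over the 2 WT arrays and 1293 with median centring, against 66, and genes at least 2-fold lower 1085, 1072 and 843, against 3958. The median log2 difference of all expressed genes, -0.70, turned to 0.05, 0.04 and 0.32 under these 3 scalings, and was -0.27 without a filter on low signal and -0.21 with the mean over probe sets. A floor at the 25th percentile (9.38 units) gave 281 higher genes, as deposited and under every scaling, and one at the 75th (129 units) gave 38 in both, with 1855 lower as deposited and 313 under every scaling. A threshold of 1.5-fold gave 156 higher genes in both, 6533 lower and 1716 lower under every scaling, and 3-fold gave 22, 1695 and 257. The mean over probe sets gave 435 genes lower under every scaling, against 863. The median of genes over 100 kb minus that of genes under 5 kb, -0.60, kept its sign throughout, at -0.44 with either quantile normalization, -0.53 with the lower floor, -0.43 without a filter and -0.25 with the mean over probe sets. Of 1885 values for 214 named genes, 1643 kept their direction and side of 2-fold, 236 moved across 2-fold or changed sign below it, and 6 called values changed sign: Rxra (0.30 with quantile normalization over the 4 arrays, 0.40 with median centring) and, with median centring, Btc (0.04), Hspa8 (0.36), Mdm2 (0.01) and Sprr3 (0.01). A named gene that was no longer expressed, or had no probe set left, under an alternative gave no value there and is in none of these counts. Among named genes past 2-fold, 31 came within 2-fold with median centring, 18 with quantile normalization over the 4 arrays and 17 over the 2 WT arrays. With median centring these included Notch1 (-0.73), Smad4 (-0.69), Mapk14 (-0.68), Cldn1 (-0.61), Itga6 (-0.30), Nfkbia (-0.30), Bcl2l1 (-0.10), Zmat3 (-0.75) and Trp53inp1 (-0.64). Csf1 lost its call with a newly chosen probe set under every rescaling (-0.32, -0.31 and -0.27, against -2.33), as did Arid1a with median centring (-0.25, against -3.02). With the mean over probe sets 20 named genes came within 2-fold, among them Egfr (-0.93), Cxcl1 (0.72), Tob1 (0.06), Il1rap (-0.90), Traf6 (-0.95), Polh (-0.84), Rev3l (-0.91), Bcl2 (-0.45), Xiap (-0.44), Erbb3 (-0.81) and Arntl (-0.98). Relative to all genes, 2 of 20 lists changed sign, EGF receptor ligands with the lower floor (-0.36) and MAP kinase phosphatases with the mean over probe sets (-0.36). The cause of these changes was not tested. Signals near the floor carry the least information, and 558 of the 3958 lower genes are bounds.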
